A study of Mus musculus with 4 samples.

Results

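Hedgehog signalling was examined in early mouse foregut through 9 of its genes, the ligand Shh, the receptor Ptch1, the transducer Smo, the co-receptors Gas1 and Cdon, the transcription factors Gli1, Gli2 and Gli3, and Hhip. Every probe set was taken whose only gene symbol in the platform annotation was one of these names. That gave 23 of the 45101 probe sets on the array, and all 9 genes were represented. Foregut endoderm was compared with its neighbouring tissues in ARC/s mouse embryos of embryonic day 8.5 that had 4 to 5 somites. There were 2 samples of foregut endoderm, dissected from the anterior intestinal portal. The other 2 samples held mesoderm and ectoderm from the head folds and the heart, mixed together. No transgene, mutation or drug was involved, and each sample pooled 15 to 20 tissue pieces.

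In the Hedgehog pathway, Ptch1 holds the membrane protein Smo inactive until a ligand such as Shh binds to it, and active Smo then changes how the Gli factors are processed in the primary cilium. Gli2 acts mainly as an activator and Gli3 mainly as a repressor, while Gli1 is an activator whose own gene is switched on by the pathway. Ptch1 and Hhip, which binds Hedgehog ligands at the cell surface, are also transcribed in response to the signal. Gas1, Cdon and Boc are ligand-binding co-receptors, and in the mouse neural tube their genes are turned down where the signal is high. In embryos of this age Shh is made by the notochord, the prechordal plate, the floor plate and parts of the gut endoderm.

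Promoters are shown for Ptch1 and Hhip, the pathway-responsive genes that lay higher in foregut endoderm, and for Gli2, the only listed member with a match to the core of the Gli binding site. Sequences are those of RefSeq for GRCm38.p6, from 250 bases before to 50 bases after an annotated gene start, on the gene's own strand, and 7 of the 9 members, all but Shh and Gli1, were found in that table. Capitals mark the core GGGTGGT, searched on both strands.
Ptch1: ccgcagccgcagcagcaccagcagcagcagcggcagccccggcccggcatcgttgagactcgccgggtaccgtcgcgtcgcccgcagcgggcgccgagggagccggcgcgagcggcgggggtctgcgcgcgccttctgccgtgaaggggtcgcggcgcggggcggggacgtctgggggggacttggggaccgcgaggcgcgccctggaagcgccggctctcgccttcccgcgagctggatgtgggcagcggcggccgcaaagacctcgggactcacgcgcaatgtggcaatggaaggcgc
Hhip: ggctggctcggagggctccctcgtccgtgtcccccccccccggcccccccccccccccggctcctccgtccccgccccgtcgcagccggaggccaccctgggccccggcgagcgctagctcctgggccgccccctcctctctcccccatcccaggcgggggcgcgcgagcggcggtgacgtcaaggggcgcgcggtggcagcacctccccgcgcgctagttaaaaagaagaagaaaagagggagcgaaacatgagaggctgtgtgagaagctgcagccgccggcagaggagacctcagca
Gli2: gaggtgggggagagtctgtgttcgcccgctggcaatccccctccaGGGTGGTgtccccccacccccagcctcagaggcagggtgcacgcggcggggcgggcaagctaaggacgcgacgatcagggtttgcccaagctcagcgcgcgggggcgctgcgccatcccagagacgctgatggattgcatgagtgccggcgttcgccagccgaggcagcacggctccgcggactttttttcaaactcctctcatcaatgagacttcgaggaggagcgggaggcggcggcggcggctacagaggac

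These windows lie at chr13:63565686-63565985 on the minus strand for Ptch1, chr8:80057959-80058258 on the minus strand for Hhip and chr1:119053570-119053869 on the minus strand for Gli2. The 9-letter site TGGGTGGTC, of which the core is a part, occurred in 0 of the 7 member promoters and in 0.253% of all 32851 promoters of the same length. The 7-letter core occurred in 1 of the 7 and in 4.61% of all promoters. In Gli2 it began at base 46 of the window. The Ptch1 window was 76.3% G and C with 47 CG dinucleotides, and the Hhip window was 73.7% with 30. Both exceed the middle of the distribution over all promoters, which had medians of 52.7% and 7. The Cdon window was the exception among the members, with 44.7% and 3.

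Intensity was measured once per sample on an Affymetrix mouse MOE430 array, so 4 arrays were available. The work was done as 2 experiments with 1 sample of either tissue each. Samples numbered 1 were separated by hand, whereas samples numbered 2 were first digested with trypsin and pancreatin, so experiment and dissection method cannot be told apart; the design text mentions the enzymes for all endoderm. One description field calls foregut endoderm 2 ectoderm, against its title, source and tissue labels. Values are given as log2 intensity. The lowest value of an array, its floor, lay between 2.25 and 2.28, and a probe set within 0.1 of it is called at the floor. With 2 arrays per tissue, precision is limited throughout.

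Marker genes matched the tissue names for endoderm but not throughout for the heart, endothelium or head mesenchyme. All 10 foregut endoderm markers were at least 2-fold higher in foregut endoderm in both experiments, and their median log2 intensity was 8.58 and 9.57 in foregut endoderm 1 and 2, against 4.26 and 5.59 in mesoderm and ectoderm 1 and 2. The marker lists were chosen with earlier results of these data known, so this match is a description and not an independent check. The 12 heart muscle markers had medians of 7.72 and 4.58 in foregut endoderm 1 and 2, against 2.76 and 12.99 in mesoderm and ectoderm 1 and 2, and their log2 values summed to 93.7 and 56.7, against 38.0 and 141.6. Thus foregut endoderm 1 carried heart muscle transcripts, and the sample labelled mesoderm and ectoderm 1 was nearly without them. Actc1, the cardiac actin, was at 12.56 and 4.82 in foregut endoderm 1 and 2, against 3.69 and 14.08. The 12 neural plate markers had medians of 3.85 and 2.82 in foregut endoderm, against 7.98 and 6.93 in mesoderm and ectoderm, and 8 of the 10 with a log2 intensity above 5 on at least 2 arrays were at least 2-fold lower in foregut endoderm in each experiment. The 2 brightest, Sox2 and Otx2, were not. Sox2 was at 10.57 and 11.71, against 11.63 and 11.73, and Otx2 was at 8.23 and 9.88, against 10.91 and 9.80. Endothelial markers had medians of 6.03 and 2.94 in foregut endoderm 1 and 2, against 3.51 and 5.72. Head mesenchyme markers had medians of 7.53 and 3.97, against 5.39 and 5.41. Of the markers above that filter, 4 of 4 endothelial, 3 of 5 head mesenchyme and 2 of 2 red cell genes had opposite signs in the experiments. For the brightest probe set of each member, the tissue difference is therefore given within each experiment, and for most members also over all 4 arrays.

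**Figure D1:**
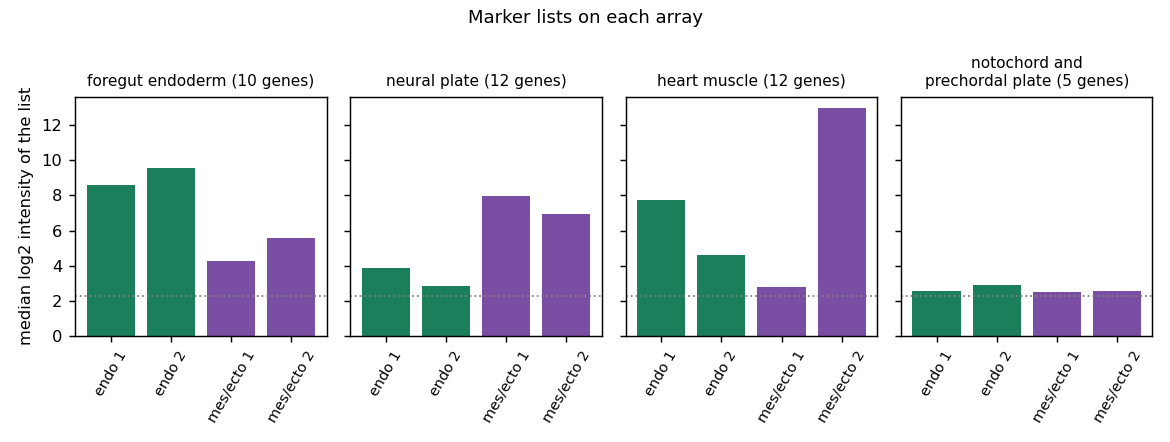
Median log2 intensity of 4 marker lists (vertical axis) on each of the 4 arrays, with foregut endoderm in green and mesoderm and ectoderm in purple; the dotted line is the lowest value of any array. Endoderm markers are high on both foregut endoderm arrays, and heart muscle markers are high on foregut endoderm 1 (7.72) and mesoderm and ectoderm 2 (12.99).

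The first question was whether ligand, receptor and target genes lay higher in foregut endoderm than in the tissues around it. Shh and Ptch1 were at least 2-fold higher in foregut endoderm in both experiments. They were 2 of the 7 members that passed the filter on dim probe sets, a log2 intensity above 5 on at least 2 arrays, while 3.57% of the 13288 kept probe sets and 3.54% of the 7802 kept genes met the same rule. None of the 7 was at least 2-fold lower in both, as 1.0% of kept probe sets and 1.24% of kept genes were. The 7 members had a median log2 difference of -0.49 in experiment 1 and -0.09 in experiment 2, beside 0.15 and 0.01 over all kept genes. Of the 23 probe sets, 11 passed the filter. Another 7, from 7 different genes, were at the floor on all 4 arrays, and 5 were dim. Of all probe sets, between 41.3% and 44.7% were at the floor on a single array.

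Shh, the secreted ligand, had log2 intensities of 10.20 and 11.88 in foregut endoderm 1 and 2, against 7.05 and 8.17 in mesoderm and ectoderm 1 and 2 (probe set 1436869_at). Both endoderm arrays were above both others, a separation shared by 18.2% of kept genes in this direction. The difference was 3.15 in experiment 1 and 3.71 in experiment 2, or 8.86-fold and 13.1-fold. Shh was not at the floor outside the endoderm, where it lay 4.77 and 5.88 log2 units above the lowest value of those arrays. In bulk tissue, fewer cells with the transcript and less transcript per cell cannot be told apart. Over the 4 arrays the difference was 3.43 ± 0.80 (SE, limma), with a 95% confidence interval from 1.13 to 5.72 and an adjusted p of 0.981. A second Shh probe set, 1427571_at, stayed at the floor of every array. Ranked by the smaller of its differences in the experiments, Shh was number 17 of 7802 kept genes.

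Ptch1, the receptor, was at 13.94 and 13.64 in foregut endoderm 1 and 2, against 11.38 and 11.19 in mesoderm and ectoderm 1 and 2 (probe set 1428853_at). Replicates lay close together in either tissue, the SD being 0.21 for foregut endoderm and 0.14 for mesoderm and ectoderm (n = 2 each). The log2 difference was 2.56 in experiment 1 and 2.46 in experiment 2, which are 5.89-fold and 5.48-fold. Ptch1 ranked number 45 of the kept genes by its smaller difference. The estimate over 4 arrays was 2.51 ± 0.33 (SE, limma; 95% confidence interval from 1.56 to 3.45), with an adjusted p of 0.724. No probe set reached a lower one, but others shared it, such as that of Foxa1. By the size of its limma t statistic, Ptch1 was number 36 of the kept probe sets. A dim Ptch1 probe set, 1439663_at, lay above the floor on the foregut endoderm 1 array alone, at 3.53, and 1450824_at did not leave the floor on any array.

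Neither gene passed the test across all probe sets. Limma called 0 of 13288 at an adjusted p under 0.05 (0.0%), while 500 had an unadjusted p under 0.05, among them Shh at 0.0151 and Ptch1 at 0.00216. Fitting the replicate number as a block also gave 0 (0.0%), and 1326 probe sets then lay under 0.05 before adjustment. In that fit the unadjusted p was 0.00125 for Shh and 0.00171 for Ptch1, and the adjusted p was 0.351 for both. Its 95% confidence intervals ran from 2.54 to 4.32 for Shh and from 1.78 to 3.23 for Ptch1. With any 1 array left out, foregut endoderm 1 and mesoderm and ectoderm 1 included, the log2 difference ran from 2.59 to 4.27 for Shh and from 2.36 to 2.65 for Ptch1.

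**Figure D2:**
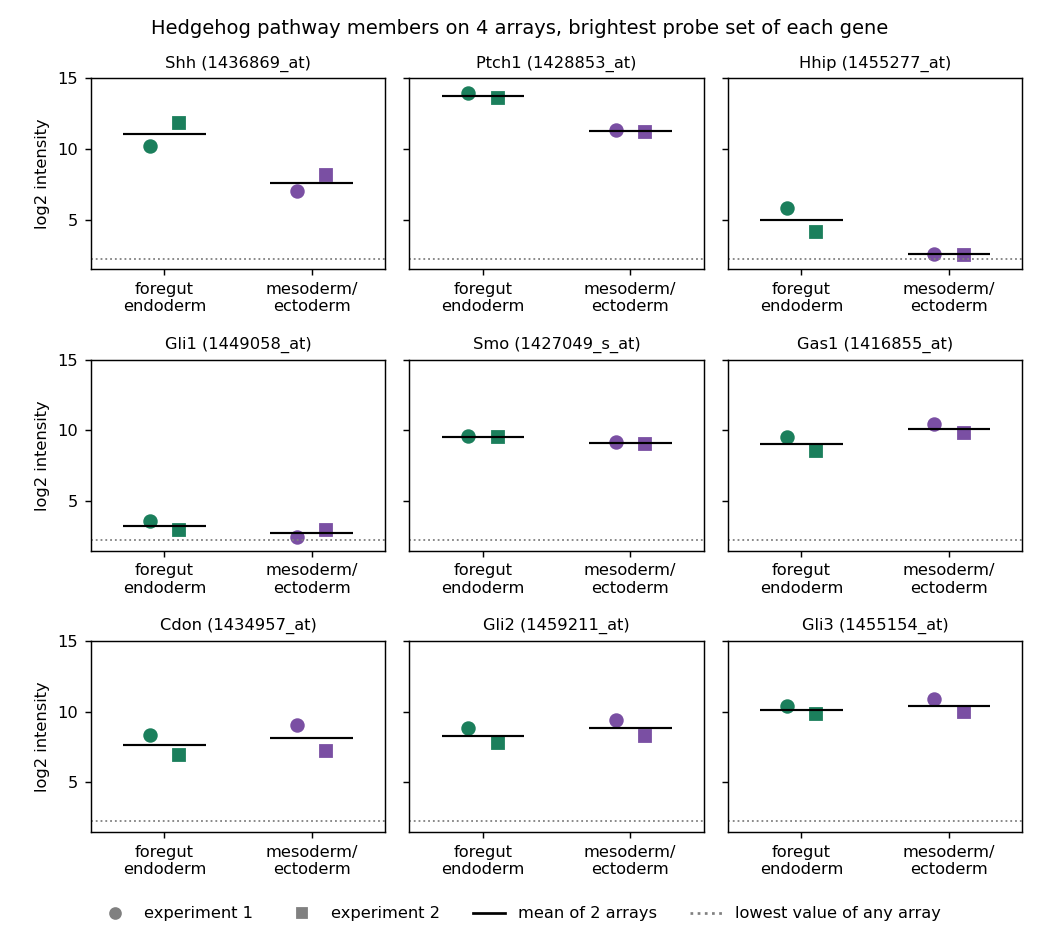
Log2 intensity (vertical axis) of the brightest probe set of each of the 9 genes, with foregut endoderm in green on the left and mesoderm and ectoderm in purple on the right, with circles for experiment 1, squares for experiment 2, a line at the mean of 2 arrays and a dotted line at the lowest value of any array. Shh and Ptch1 separate the tissues, Gli1 lies near the floor throughout, and Hhip stands clear of it in foregut endoderm only.

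Hhip, the ligand-binding antagonist and pathway target, was dim but higher in foregut endoderm. Its brightest probe set, 1455277_at, was at 5.85 and 4.11 in foregut endoderm 1 and 2, against 2.59 and 2.54 in mesoderm and ectoderm 1 and 2. It thus crossed the filter level on 1 array only and was not part of the main test. Its log2 difference was 3.25 in experiment 1 and 1.56 in experiment 2, or 9.54-fold and 2.95-fold. Outside the endoderm this probe set lay 0.31 and 0.26 log2 units above the lowest value of the array, so the size of its difference is limited by the lower end of the scale. Among all probe sets without a filter, limma gave 2.41 ± 0.77 (SE) and an adjusted p of 0.467. A second probe set, 1438083_at, was at 4.06 in foregut endoderm 1 and at the floor on the other 3 arrays. The third, 1437933_at, was at 3.30 and 3.01 in foregut endoderm 1 and 2, against 2.93 and 2.94, and the fourth, 1421426_at, was at the floor throughout. Hhip was highest on the array that also held heart muscle, endothelial and head mesenchyme transcripts, and the part these had in its level was not tested.

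Gli1, the activator induced by the pathway, was close to the floor on every array. The single probe set, 1449058_at, was at 3.56 and 2.97 in foregut endoderm 1 and 2, against 2.47 and 2.99 in mesoderm and ectoderm 1 and 2. The groups overlapped, and the log2 difference was 1.09 in experiment 1 and -0.02 in experiment 2. A tissue difference in Gli1 was therefore not detectable with this probe set.

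The transducer Smo was the third kept member with both endoderm arrays above both others. Probe set 1427049_s_at was at 9.58 and 9.55 in foregut endoderm 1 and 2, against 9.21 and 9.01 in mesoderm and ectoderm 1 and 2. The log2 difference was 0.37 in experiment 1 and 0.55 in experiment 2, and 0.46 ± 0.31 (SE, limma) over all arrays. Its 95% confidence interval ran from -0.43 to 1.35 and the adjusted p was 1. A second probe set of similar brightness, 1427048_at, was at 9.67 and 9.19, against 8.31 and 8.73, a difference of 1.36 in experiment 1 and 0.46 in experiment 2. The 2 probe sets agreed in direction and differed in size in experiment 1. Smo thus lay under 2-fold apart in experiment 2 by either probe set.

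The co-receptor Gas1 ran the other way. It was at 9.57 and 8.52 in foregut endoderm 1 and 2, against 10.44 and 9.83 in mesoderm and ectoderm 1 and 2 (probe set 1416855_at), and both endoderm arrays were below both others. Gas1 was the only one of the 7 kept members with that separation, which 9.69% of kept genes showed. The log2 difference was -0.87 in experiment 1 and -1.31 in experiment 2. Over all arrays it was -1.09 ± 0.54 (SE, limma), with a 95% confidence interval from -2.63 to 0.45 and an adjusted p of 1. For Gas1 with the replicate number as a block, the interval ran from -1.92 to -0.26, and the limma adjusted p was 0.497. Its dimmer probe set, 1448494_at, was at 5.98 and 5.70, against 6.32 and 6.02, a smaller difference of -0.33. Under quantile normalization or median centring Gas1 passed 2-fold in both experiments, and as deposited it did not.

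Cdon, the other co-receptor among the members, was at 8.34 and 6.92 in foregut endoderm 1 and 2, against 9.08 and 7.21 in mesoderm and ectoderm 1 and 2 (probe set 1434957_at). Its difference was -0.74 in experiment 1 and -0.29 in experiment 2, and the tissues overlapped. The difference over 4 arrays, -0.52 ± 0.91 (SE, limma), had a 95% confidence interval from -3.14 to 2.11. With the replicate number as a block, the interval ran from -1.35 to 0.32. Without foregut endoderm 2 the unpaired difference became 0.19, and without mesoderm and ectoderm 1 it became 0.42.

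Gli2, the main activator, was at 8.83 and 7.78 in foregut endoderm 1 and 2, against 9.38 and 8.28 in mesoderm and ectoderm 1 and 2 (probe set 1459211_at). Within the experiments the difference was nearly the same, -0.56 and -0.50, although the tissues overlapped across experiments. Its other kept probe set, 1446086_s_at, differed by -0.12 and -0.75. Gli3, the main repressor, was at 10.39 and 9.87 in foregut endoderm, against 10.88 and 9.95 in mesoderm and ectoderm (probe set 1455154_at), with differences of -0.49 and -0.09. A second Gli3 probe set, 1456067_at, was at 9.27 and 6.69, against 9.35 and 6.30, so that its difference was -0.08 in experiment 1 and 0.39 in experiment 2. The 95% confidence intervals of the limma differences ran from -2.35 to 1.30 for Gli2 and from -1.70 to 1.13 for the brighter Gli3 probe set. With the replicate number as a block, they ran from -1.25 to 0.19 and from -1.10 to 0.52. Without mesoderm and ectoderm 1 the unpaired differences became 0.03 and 0.18. That value sets the endoderm of both experiments against mesoderm and ectoderm 2 alone, whereas within either experiment the brightest probe set of both genes was lower in foregut endoderm.

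By direction alone, 3 of the 7 kept members (Shh, Ptch1 and Smo) lay higher in foregut endoderm each time, as did 37.0% of kept genes. The other 4 (Gas1, Cdon, Gli2 and Gli3) lay lower each time, as did 24.3%. The neural plate marker medians were lower in foregut endoderm in both experiments too, and the part of neural tissue in the lower values of Gas1, Cdon, Gli2 and Gli3 was not tested.

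**Figure D3:**
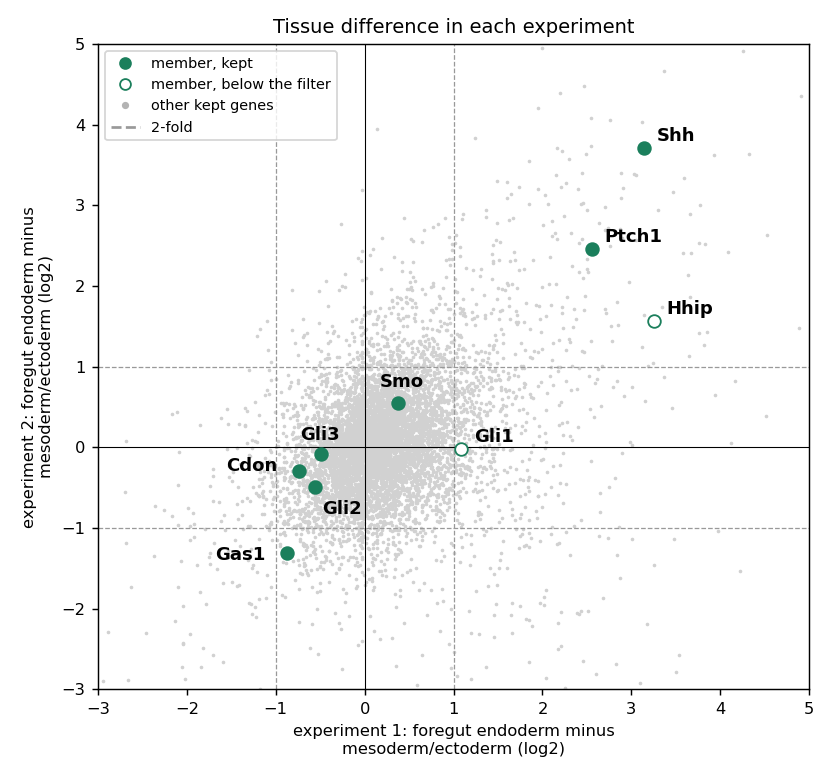
Log2 difference, foregut endoderm minus mesoderm and ectoderm, in experiment 1 (horizontal axis) and experiment 2 (vertical axis) for the 9 genes (green, open where below the filter) and all other kept genes (grey), with dashed lines at 2-fold; 133 kept genes lie outside the axes. Shh and Ptch1 lie far out in the upper right, and Gas1, Cdon, Gli2 and Gli3 lie in the lower left near the bulk of genes.

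Most kept probe sets of the members also differed between the experiments in the same direction in both tissues, by their values on single arrays. Shh was higher in experiment 2 by 1.68 log2 units in foregut endoderm and 1.12 in the mixed tissue, an at least 2-fold shift in both that 11.2% of kept genes showed. Cdon was lower in experiment 2, with changes of -1.42 in the endoderm and -1.87 outside it. The changes of Gli2 were -1.05 in the endoderm and -1.11 outside it. They were the 2 kept members at least 2-fold lower in both tissues, beside 4.87% of kept genes. Any decrease in both tissues was found for 6 of the 7 kept members and for 36.1% of kept genes. Ptch1 moved little, by -0.30 in foregut endoderm and -0.19 outside it, as did the brighter Smo probe set, by -0.03 and -0.20. The other Smo probe set, 1427048_at, was the exception in direction, with -0.48 in the endoderm and 0.42 outside it. The 2 kept Gli3 probe sets were unlike here, as 1455154_at changed by -0.52 and -0.92 and 1456067_at by -2.58 and -3.05. For Cdon and Gli2 the step between experiments was thus larger than the step between tissues, whereas for Ptch1 it was far smaller.

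**Figure D4:**
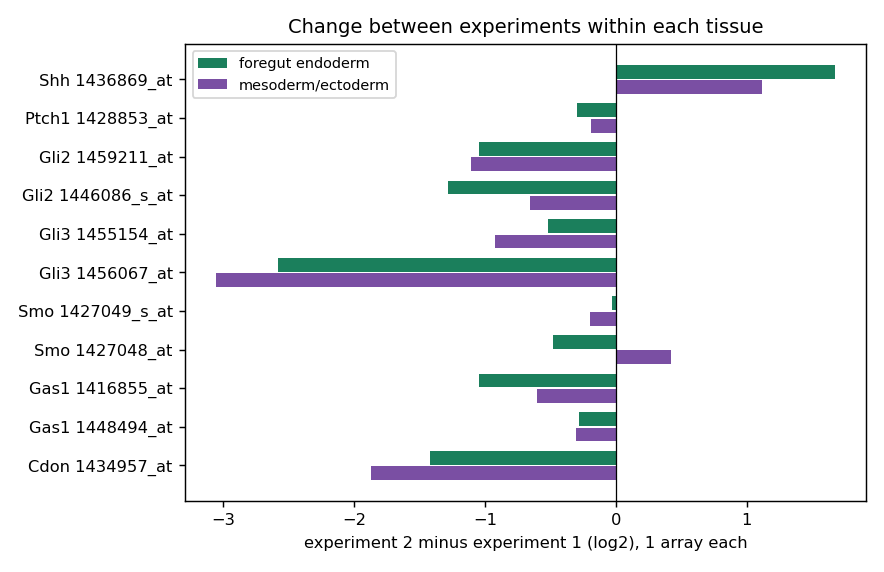
Log2 change from experiment 1 to experiment 2 (horizontal axis) for the 11 kept probe sets of the members (vertical axis), with foregut endoderm as the green upper bar and mesoderm and ectoderm as the purple lower bar, each bar being 1 array minus 1 array. Shh increases in both tissues, Cdon, Gli2 and Gli3 decrease in both, and Ptch1 changes by less than 0.3 in either.

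Since Shh is also a product of axial midline cells, midline markers were read on the same arrays. Of 7 notochord and prechordal plate genes, 5 had a probe set under the symbol used, and the notochord genes T and Noto had none under theirs. Other names of T and Noto were not searched, so their absence from the array is not shown. The log2 values of the 5 summed to 17.6 and 20.3 in foregut endoderm 1 and 2, against 19.1 and 19.0 in mesoderm and ectoderm 1 and 2. Foxd4, a forkhead factor, gave the largest part of each sum and alone passed the filter. It was at 6.60 and 7.37 in foregut endoderm, against 8.02 and 7.87. Nog, a bone morphogenetic protein antagonist, and the ciliogenesis factor Foxj1 were at the floor on all 4 arrays. Chrd, a secreted antagonist of bone morphogenetic proteins made by the node and notochord, was at 3.98 and 5.49 in foregut endoderm, against 3.99 and 4.01. It was thus raised on the foregut endoderm 2 array, where Shh was highest as well. Gsc, a homeobox factor of the prechordal plate, was at 2.55 and 2.88, against 2.51 and 2.52. The part of midline cells in the Shh level was not tested.

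Another 39 genes of ligand release, reception, transduction, the cilium and response were read beside the members. A probe set existed for 37, of which 14 passed the filter and 6 were at the floor on all 4 arrays. Each gene was counted by its brightest probe set. Among the 14, limma called 0 in either direction, 7 lay higher and 2 lower in foregut endoderm both times, as 37.0% and 24.3% of all kept genes did, and 1 each passed 2-fold upwards and downwards, beside 3.54% and 1.24% of kept genes. Their median difference was 0.16 in experiment 1 and 0.19 in experiment 2. Gpc3, a membrane glypican that binds Hedgehog ligands, was the higher one, at 8.23 and 10.58 in foregut endoderm 1 and 2, against 4.46 and 9.17 in mesoderm and ectoderm 1 and 2. Lrp2, the endocytic receptor megalin that takes up Shh in forebrain neuroepithelium, was the lower one, at 7.04 and 5.39, against 8.57 and 6.66 (probe set 1427133_s_at). The dimmer Lrp2 probe set, 1452320_at, differed by -1.09 and -0.57. For the cilium gene Kif3a the choice of probe set also mattered. Its brightest, 1449841_at, differed by 0.03 and 0.74, and its other kept one, 1420375_at, by 1.22 and 1.40, above 2-fold in both experiments. With 1 array left out, only 1 experiment keeps both tissues, so a count over both experiments cannot be made.

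No gene of ligand processing and release passed the filter. The other ligand genes Ihh and Dhh were at the floor on all 4 arrays. Disp1, which releases lipid-modified ligand from the producing cell, had the highest mean of that group, at 5.00 and 4.66 in foregut endoderm 1 and 2, against 4.35 and 4.19 in mesoderm and ectoderm 1 and 2. By brightest probe set, 2 of the 4 kept intracellular transduction genes lay higher in foregut endoderm both times, as did 37.0% of kept genes. The other 2 had opposite signs in the experiments, as did 38.7%. Prkaca, a catalytic subunit of protein kinase A, was the brightest of them, at 11.30 and 11.63, against 10.90 and 11.29. The other kept Prkaca probe set, 1450519_a_at, switched sign, with -0.24 in experiment 1 and 0.43 in experiment 2. Spop, an adaptor of a ubiquitin ligase, differed by 0.60 in experiment 1 and 0.54 in experiment 2. Tulp3, a ciliary trafficking protein, was the brightest cilium gene, at 8.19 and 7.73, against 8.14 and 7.31. Of 5 kept cilium genes, 4 lay higher in foregut endoderm both times, beside 37.0% of all kept genes, with a list median of 0.05 and 0.42. Among 11 genes that respond to the pathway in other embryonic tissues, 2 were kept. Mycn, the proto-oncogene with the highest mean of them, was at 12.04 and 10.25, against 12.30 and 11.06. The ventral neural tube genes Nkx6-1 and Olig2 and the lung and thyroid factor Nkx2-1 were at the floor on all 4 arrays.

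**Figure D5:**
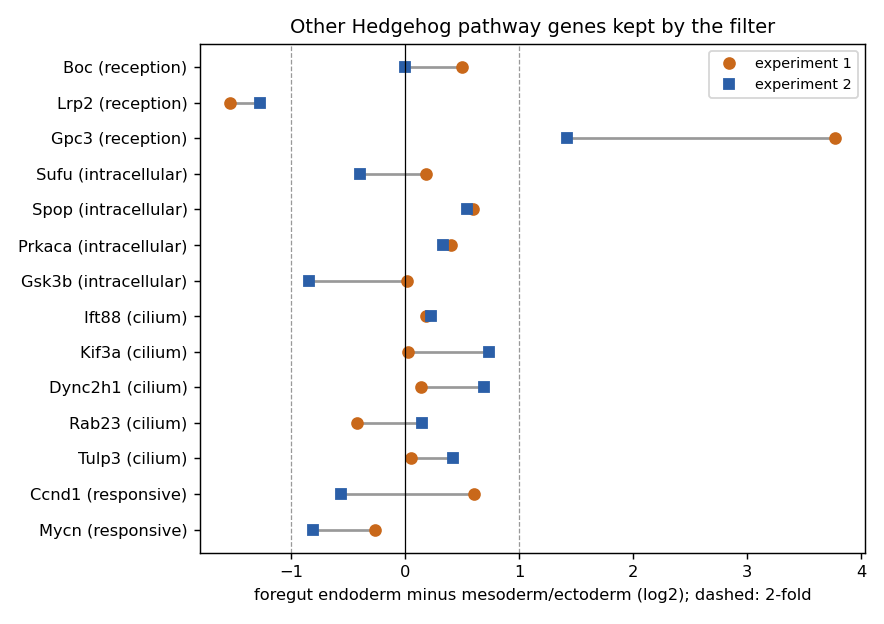
Log2 difference, foregut endoderm minus mesoderm and ectoderm (horizontal axis), in experiment 1 (circles) and experiment 2 (squares) for the 14 other pathway genes that passed the filter (vertical axis, with their list), with dashed lines at 2-fold. By the brightest probe set of each gene, Gpc3 lies above and Lrp2 below 2-fold in both experiments, and the other 12 do not pass it in both.

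Genes with the most similar profile over the 4 arrays were sought among the other 7801 kept genes, by Euclidean distance after centring each gene on its mean. For Shh they were Kdf1, an epithelial differentiation factor (distance 0.66), the adherens junction gene Cdh1 (0.70) and the transglutaminase Tgm2 (0.74). Those nearest to Ptch1 were the transporter Slco4c1 (0.28), the ETS-family factor Etv5 (0.30) and the glycosyltransferase B4galt6 (0.32). Etv5 was at 9.61 and 9.60 in foregut endoderm 1 and 2, against 7.45 and 7.02 in mesoderm and ectoderm 1 and 2, and Slco4c1 was at the floor outside the endoderm. For Gli3 the nearest were Spast (0.05), Zfc3h1 (0.06) and Clip3 (0.07). A profile of 4 arrays is short, and these distances are a description only.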

How the data were processed

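Total RNA of 4 pooled tissue samples was amplified in 2 rounds, labelled with biotin and hybridized, per the labels and design text. The deposited values are linear intensity values per probe set, which the authors normalized by GC-RMA using GenePattern, as the design text states. RMA is listed per the submitters' processing notes. Versions were not given in the sources used here, nor were parameters. The linear scale was read from the values. Here log2 was taken, 64 control probe sets were left out, and probe sets above 5 on at least 2 arrays were kept (13288 probe sets, 7802 genes with 1 symbol, each by its brightest probe set). In the platform annotation 34958 probe sets had 1 symbol, 932 had several and 9211 had none. By gene identifier 34754 matched RefSeq GRCm38.p6, and 0 symbols changed.

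The tissue comparison, foregut endoderm over mesoderm and ectoderm, used limma (version 3.58.1, R 4.3.3) with eBayes, two-sided, and Benjamini-Hochberg adjustment over all kept probe sets at 0.05, and no block. The p-values measure only the spread between these samples, since the labels do not say that they came from separate litters. The fit was run on simulated data as a check of the code, which does not show how it performs on these arrays. The sample numbers pair the samples, since the labels tie each number to 1 way of dissection, and deviations from the tissue means of same-numbered arrays correlated at 0.565 across 13288 probe sets. Text names all 9 members, pathway genes at least 2-fold apart in both experiments, the brightest gene of each pathway list and the nearest 3 profiles of Shh, Ptch1 and Gli3. Of the 2 brightest or floor-level genes of marker lists it names some, and none of the neural crest list. Further pathway and marker genes named were chosen after their values were seen. Alternatives were quantile normalization, median centring, no filter, a filter at 6, a pseudocount of 16, the mean over probe sets, the replicate block and leaving out each array. Members and lists were chosen with earlier results of these data known. No pair of arrays held identical values, and between 12470 and 13033 probe sets of an array exceeded the filter level.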

Additional observations from a re-analysis of the deposited data

Results flagged for a closer look

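The tissue difference had opposite signs in the 2 experiments, each with 1 array per tissue, for 3019 of the 7802 kept genes (38.7%). The 16 probe sets given here are those found among the kept probe sets of the members, the other kept pathway genes by their brightest probe set, and the 2 brightest genes of each marker list. The difference between the experiments was not tested for any of them. Values are the log2 tissue difference of experiment 2 minus that of experiment 1. Among the members it concerned the dimmer kept Gli3 probe set, 1456067_at, at 0.47. Among other pathway genes the values were -0.50 for the co-receptor Boc, -0.58 for the Gli inhibitor Sufu, -0.85 for the kinase Gsk3b, 0.57 for the ciliary GTPase Rab23 and -1.16 for cyclin D1 (Ccnd1). Several of these rest on a difference near 0 in 1 experiment, such as 0.01 for Gsk3b and -0.004 for Boc.

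Larger values were found in genes of other cell types. They were -18.13 for Actc1 and -12.22 for Myh7 of heart muscle, -6.02 for Kdr and -4.68 for Tek of endothelium, -5.22 for Pdgfra and -4.25 for Prrx2 of head mesenchyme, and -6.34 for Hbb-bh1 and -6.15 for Hbb-y of red cells. The forebrain factor Otx2 was at 2.76 and Chrd at 1.49. Shh, Ptch1, Smo, Gas1, Cdon and Gli2 did not switch sign in any kept probe set.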

How the results depend on the processing

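Of the 9 members, Shh, Ptch1, Smo, Gas1, Hhip and Gli1 kept the direction of their mean difference under every alternative run for them. Gli1 lay near the floor, and its difference was 1.09 in experiment 1 and -0.02 in experiment 2. With all arrays in use, limma called 0 probe sets under every alternative, the replicate block included. Shh ran from 2.59 to 4.27 log2 units and Ptch1 from 2.33 to 2.65, with adjusted p between 0.351 and 1.00 for both. The members whose direction turned did so when 1 array was left out of the unpaired fit (the tissue's lone array is then assumed to vary like the other tissue's pair), over ranges of -1.45 to 0.42 for Cdon, -1.08 to 0.026 for Gli2 and -0.75 to 0.18 for Gli3. Gas1 ran from -1.61 to -0.57. Adding 16 to each intensity brought Hhip to 1.17. With all arrays in use, the count of members at least 2-fold apart in both experiments was 2 or 3. The third was Gas1 under quantile normalization or median centring, and Hhip without a filter. The count of other pathway genes was 2 in the main setting. It was 1 with the mean over probe sets of a gene, where Lrp2 dropped out, and 3 without a filter, where Scube2 joined. With 1 array left out, only 1 experiment keeps both tissues, so neither count can be made. Scaling moved the median difference of all kept probe sets, which was 0.10 as deposited, -0.01 with quantile normalization and -0.08 with median centring. With a block for the replicate number, the paired fit, standard errors were 0.28 for Shh, 0.23 for Ptch1, 0.22 for Gli2 and 0.26 for Gas1, the members' adjusted p lay at 0.351 or above, and no call changed. Arrays are few, which limits the precision. Causes were not tested.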

Other observations

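Some pathway genes below the filter, chosen after their values were seen, differed between the tissues. Scube2, a secreted protein that helps release Hedgehog ligands, was at 2.78 and 2.62 in foregut endoderm 1 and 2, against 7.34 and 4.62 in mesoderm and ectoderm 1 and 2. It was lower in foregut endoderm in both experiments and passed the filter level on 1 array. Gpr161, a ciliary receptor that restrains the pathway, was at 4.76 and 5.79 in foregut endoderm, against 4.14 and 4.31. Bmp4, a signalling ligand, was at 4.74 and 6.06, against 3.84 and 4.78. Foxc2, a forkhead factor of mesoderm, was at 6.92 in foregut endoderm 1 and at the floor in foregut endoderm 2, against 3.07 and 4.50. Its highest value thus lay on the endoderm array that also held heart muscle, endothelial and head mesenchyme transcripts. The part of such transcripts in its level was not tested.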
